A study of Mus musculus with 2 samples.

Results

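Hearts in which fibroblasts had been ablated were set against control hearts at the embryonic stage E18.5, shortly before birth in the mouse. Of the 13246 cells in 2 pooled single-cell libraries, 4553 came from E18.5 hearts, and they were chosen by the name of the barcoded sample deposited beside each cell. The ablated samples had the genotype Pdgfra-CreER+/-;Rosa-DTA+/- and held 1344 cells in pool 1 and 1524 in pool 2. The control samples had the genotype Rosa-DTA+/- and held 923 cells in pool 1 and 762 in pool 2. By genotype they thus carried the toxin allele too and lacked the recombinase. The other 8693 cells came from E16.5 hearts. The labels used here give neither the day on which the recombinase was switched on nor whether 1 heart or several went into a barcoded sample, so p-values measure the spread between these samples, which may be technical. Gene values were not analysed here, so neither the level of Pdgfra nor the markers behind a cell type name could be checked, and no gene is compared.

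Cardiac fibroblasts lie between the muscle cells, make the extracellular matrix of the heart and express the receptor gene Pdgfra. The CreER recombinase enters the nucleus only when tamoxifen or a related ligand is given; driven from Pdgfra, it then opens the Rosa-DTA allele in cells that express that gene. Diphtheria toxin fragment A stops protein synthesis and kills the cell that makes it. Pdgfra is also active in some cells of the epicardium, the outer layer of the heart, from which many fibroblasts and mural cells (pericytes and smooth muscle cells around vessels) descend.

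The identity of each cell rests on a MULTI-seq barcode, a short DNA oligonucleotide anchored in the cell membrane by a lipid before the cells of several samples were mixed. The sequences are shown because they alone separate ablated from control cells within a library. They are 8 bases long and are given 5′ to 3′ in lower case.
Ablated, pool 1: tgaccgat
Control, pool 1: ccaaccgg
Ablated, pool 2: gaatctcg
Control, pool 2: atagcgtc
Within each pool the ablated and the control E18.5 barcode differed at 6 positions, and each differed at 4 to 6 positions from the 3 other barcodes of its pool. Ablated and control cells of a pool therefore shared 1 library, and a difference between them within a pool is not one between libraries. Among E18.5 cells, 3 cell barcodes of the droplet beads occurred in both pools.

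Depth differed little between conditions in pool 1 and more in pool 2. The median count of unique molecular identifiers (UMIs, one per captured RNA molecule) per cell was 8980.5 in the ablated and 8848 in the control sample of pool 1, and 12295 in the ablated and 10285.5 in the control sample of pool 2. The mean of the sample medians was 10638 ± 2344 in ablated and 9567 ± 1016 in control samples (SD, n = 2 each), a difference of 1071 UMIs (two-sided exact permutation test, p = 0.667), and the groups overlapped. Medians of detected genes were 3270 and 3735.5 in ablated against 3285 and 3578.5 in control samples, a mean difference of 71 genes (exact permutation test, p = 1). With 2 samples against 2 there are 6 ways to assign the labels, and no such test can give a p below 0.333. Total UMIs were 13801466 and 20497373 in the ablated and 9343082 and 9225383 in the control samples.

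Cell type names, given by the authors, were at hand for 867 ablated cells (64.5% of that sample) and 579 control cells (62.7%), all of pool 1. Each condition then had 1 sample, so a share is given with its exact 95% interval (Clopper-Pearson), and a difference with an interval that the square-and-add method makes from the intervals of both shares. These intervals cover counting error only, not the spread between hearts, and were not adjusted over types. Of the 8 cell types, 6 had an interval of the difference that lay wholly above or below 0, and 5 did after the deepest 10% of cells of the pool, or the 10% richest in mitochondrial UMIs, were left out, since the atrial interval then held 0. Fibroblasts, mural cells and atrial cardiomyocytes were a smaller share of the ablated sample. Immune cells, ventricular cardiomyocytes and epicardial cells were a larger share.

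**Figure D1:**
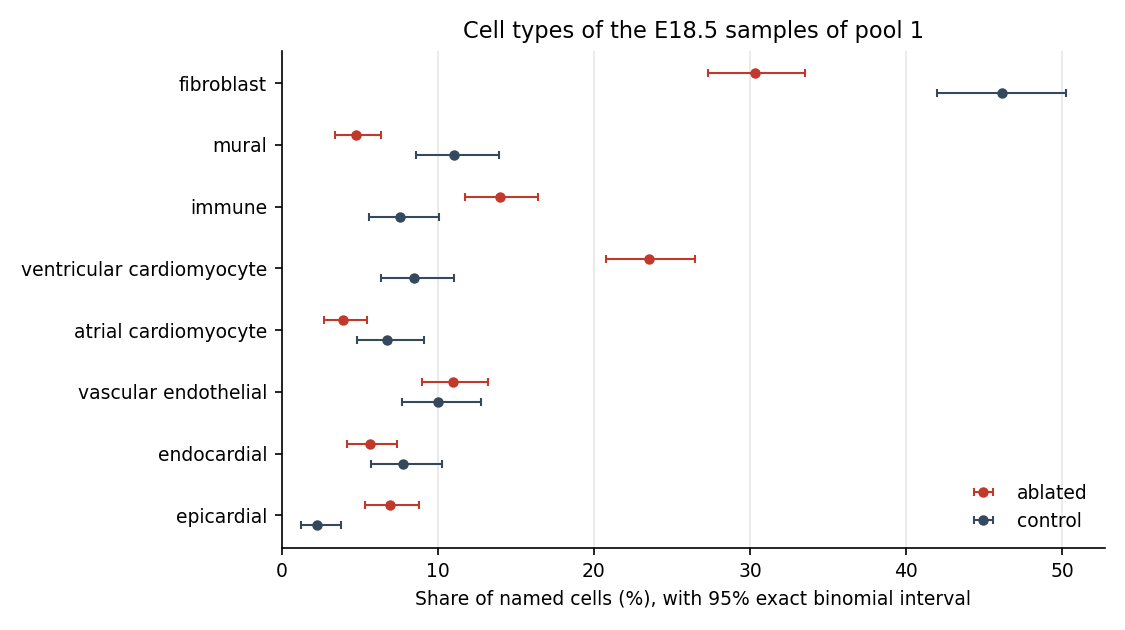
Share of named cells (%) of each cell type in the E18.5 samples of pool 1, ablated above control in each pair, with 95% exact binomial intervals. Ablated and control intervals lie apart for fibroblasts, mural cells, immune cells, ventricular cardiomyocytes and epicardial cells, and overlap for the other types.

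Fibroblasts, the targeted cells, numbered 263 of 867 in the ablated sample, or 30.3% (27.3 to 33.5), and 267 of 579 in the control sample, or 46.1% (42.0 to 50.3). Because shares add up to the whole, fewer fibroblasts and more of the other cells cannot be told apart from them. The number of cells per vascular endothelial cell was added after seeing the data as a measure that does not have the whole sample below the line; vascular endothelial cells, which line the vessels, were 10.96% of ablated and 10.0% of control cells. There were 2.77 fibroblasts per vascular endothelial cell in the ablated and 4.60 in the control sample, a ratio of 0.601 (95% exact conditional interval 0.408 to 0.882). For mural cells the numbers were 0.432 in the ablated and 1.10 in the control sample, a ratio of 0.391 (0.227 to 0.672). The ratio was 0.532 (0.291 to 0.973) for atrial cardiomyocytes and 0.665 (0.383 to 1.16) for endocardial cells, which line the chambers. It was 1.68 (1.02 to 2.78) for immune cells, 2.54 (1.58 to 4.09) for ventricular cardiomyocytes and 2.82 (1.37 to 6.07) for epicardial cells. Set against vascular endothelial cells, the same 6 types differed from a ratio of 1 as differed by share. Because vascular endothelial cells were nearly the same share of both samples, these ratios largely restate the shares. They cannot tell fewer fibroblasts from more of the other cells either.

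Ablated and control fibroblasts were spread differently over the clusters, with some clusters filled by both samples and others almost wholly by 1 of them. The authors' integrated clustering put the named E18.5 cells into 40 clusters, each of a single cell type. A cluster was called where it held at least 20 cells over both samples, its shares were at least 2 times apart (a count of 0 being set to 3 cells) and the interval of the difference excluded 0. Of the 25 clusters with enough cells, 11 were called (44%), 6 higher in the ablated sample (24% of those tested) and 5 lower (20%). Fibroblast clusters made up 2 of the 6 higher and 2 of the 5 lower. The genes that define the clusters were not analysed, so a smaller cluster can be fewer cells or cells placed elsewhere.

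Cluster 4 was the main fibroblast cluster of the control heart and nearly empty in the ablated heart. It held 7 of 263 ablated fibroblasts (2.66%) and 124 of 267 control fibroblasts (46.4%). Cluster 18, in which every E18.5 cell was called in S or G2M phase, held 10 ablated (3.802%) and 29 control fibroblasts (10.9%). With the small cluster 27, of 2 ablated and 7 control cells, these clusters held 7.22% (4.41 to 11.1) of ablated and 59.9% (53.8 to 65.9) of control fibroblasts; this grouping and those in the next sentences were made after the values were seen. Clusters 3, 13, 19 and 29 together held 69.2% (63.2 to 74.7) of ablated and 40.1% (34.1 to 46.2) of control fibroblasts. Of all named cells they were 21.0% (18.3 to 23.9) in the ablated and 18.48% (15.4 to 21.9) in the control sample. On that scale the difference was 2.51 points, with an interval that held 0 (-1.81 to 6.72). Of these clusters, cluster 3 held 91 ablated and 78 control cells and cluster 13 held 34 ablated and 13 control cells. Among all named cells, of these 4 cluster 19 alone was called, with 43 ablated and 10 control cells (2.87-fold higher share). As a share of fibroblasts, cluster 13 met the same rule, with 12.9% of ablated and 4.87% of control fibroblasts (difference 3.01 to 13.2 points). Cluster 29 held 14 ablated and 6 control cells.

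**Figure D2:**
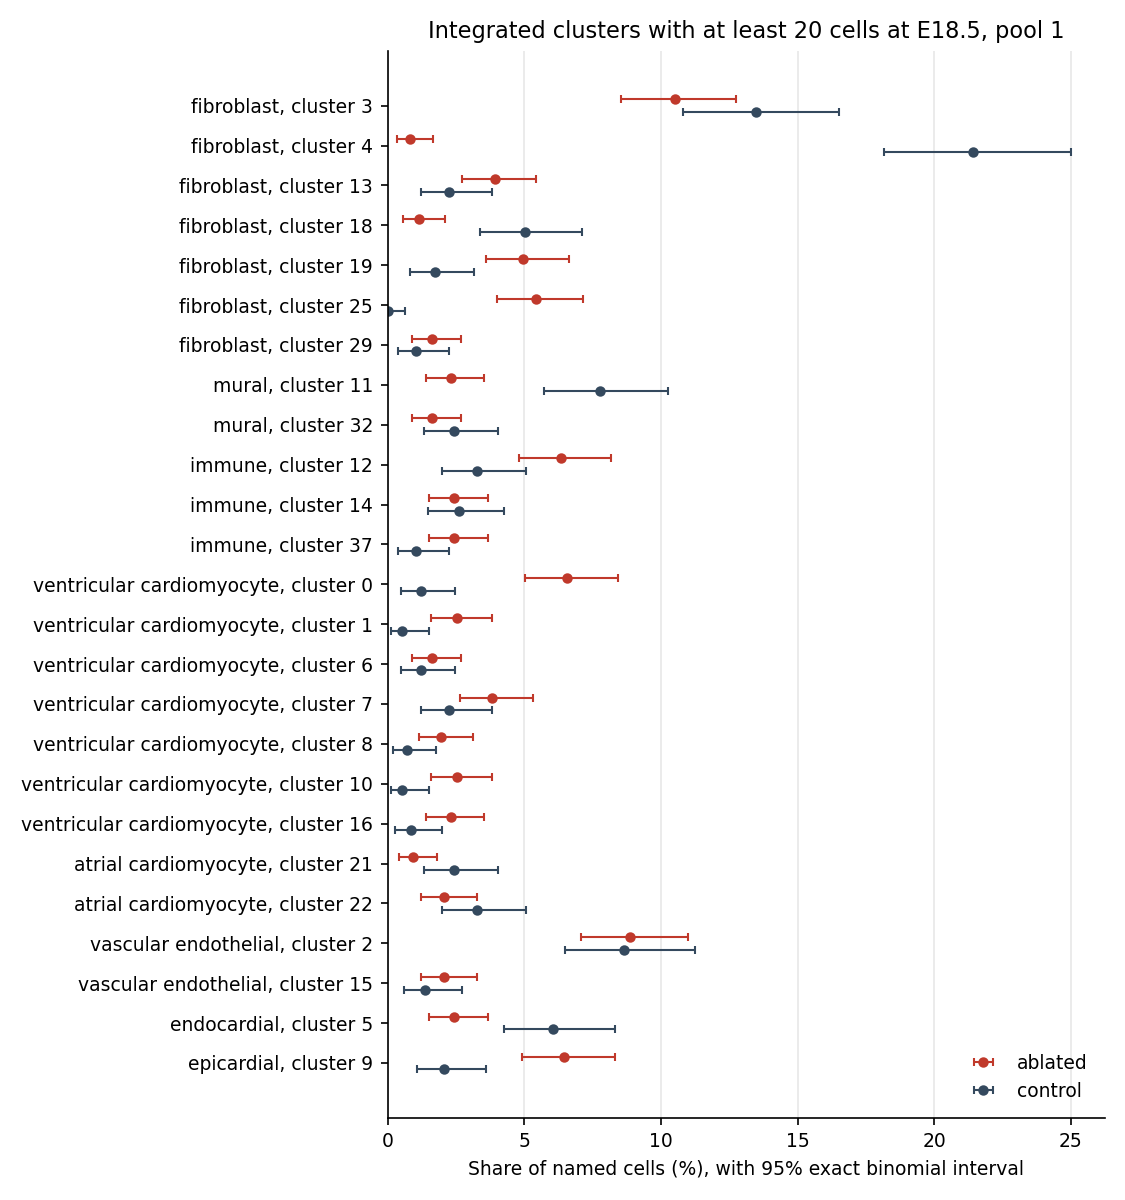
Share of named cells (%) in the 25 integrated clusters with at least 20 E18.5 cells in pool 1, ablated above control in each pair, with 95% exact binomial intervals. Fibroblast cluster 4 was 0.807% of ablated and 21.4% of control cells, and fibroblast cluster 25 was 5.42% of ablated cells with no control cell.

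Clusters 25 and 38 consisted of ablated fibroblasts alone. They held 47 and 15 ablated cells and 0 of 579 control cells, with an exact upper bound of 0.635% for the control share. Setting the count of 0 to 3 cells gives a control share of 0.518%. Together they were 7.15% (5.53 to 9.07) of named ablated cells, 13.8-fold that set share, and 23.6% (18.6 to 29.2) of ablated fibroblasts. Cluster 38 was below the minimum of 20 cells for a call. Their cells were not shallow: the median was 12265 UMIs in cluster 25 and 13786 in cluster 38, against 8804 in the other ablated fibroblasts and 9264 in control fibroblasts. They stood out by a low mitochondrial percent, the percent of a cell's UMIs that come from mitochondrial genes. Its median was 0.611% in cluster 25 and 0.704% in cluster 38, against 1.64% in the other ablated fibroblasts and 1.43% in control fibroblasts. Below 1% lay 40 of the 47 cells of cluster 25 and 10 of the 15 of cluster 38. The 2 clusters differed in phase, with 4 of 47 cells (8.51%) of cluster 25 and 15 of 15 of cluster 38 called in S or G2M. In the clustering made within pool 1 they did not form a cluster of their own: 41 cells of cluster 25 lay in pool cluster 2 and all 15 of cluster 38 in pool cluster 14, both mainly fibroblast. The clusters were made from the same cells, so these values describe them and were not tested.

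**Figure D3:**
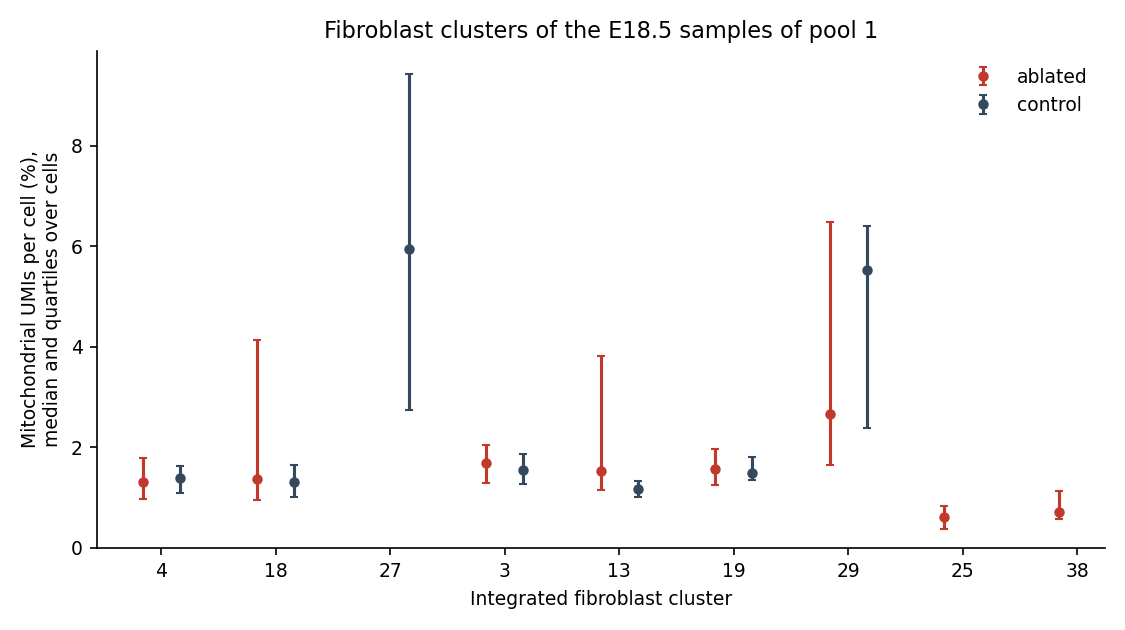
Mitochondrial UMIs per cell (%) in the fibroblast clusters of the E18.5 samples of pool 1, as median and quartiles over cells, ablated left of control. Cluster 27 has no ablated point, since it held 2 ablated cells. Medians of clusters 25 and 38, which have ablated cells alone, lie at 0.611% and 0.704%, below those of every other cluster drawn.

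Mural cells numbered 41 (4.73%) in the ablated and 64 (11.1%) in the control sample. Of the 3 mural clusters, cluster 11 was called lower, with 20 ablated and 45 control cells (3.37-fold lower share). Cluster 32 held 14 cells of each sample, and cluster 30 held 7 ablated and 5 control cells. Cluster 11 was split by the clustering within pool 1. The cells of it that lay in the mainly fibroblast pool cluster 1 were 9 (1.04%) in the ablated and 35 (6.04%) in the control sample. Those in the mainly mural pool cluster 8 were 11 (1.27%) in the ablated and 10 (1.73%) in the control sample, a difference of -0.458 points (-2.02 to 0.877). Of all mural cells, 22.0% (10.6 to 37.6) in the ablated and 54.7% (41.7 to 67.2) in the control sample lay in pool cluster 1. Among named cells, the lower mural share was thus mainly one of mural cells that the pool's own clustering placed with fibroblasts. The part that the naming of cells had in it was not tested. Over all cells of pool 1, named or not, pool cluster 8 was lower too, though not called. It held 51 ablated (3.79%) and 60 control cells (6.50%), a difference of -2.71 points (-4.73 to -0.804).

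Immune cells numbered 121 (13.96%) in the ablated and 44 (7.60%) in the control sample. The difference was smaller by UMIs than by cells: of all UMIs of named cells, they held 7.96% in the ablated and 5.71% in the control sample. Their median depth was 4783 UMIs in the ablated and 5707 in the control sample, the lowest of the 8 types in both. No immune cluster was called. Cluster 12 held 55 ablated and 19 control cells, and cluster 14 held 21 ablated and 15 control cells. Clusters 34, 35 and 37, grouped after their values were seen, held 16, 4 and 21 ablated against 1, 0 and 6 control cells, which is 33.9% (25.5 to 43.0) of ablated and 15.9% (6.64 to 30.1) of control immune cells. Immune cells under 1% mitochondrial UMIs were 33 of 121 (27.3%) in the ablated and 4 of 44 (9.09%) in the control sample.

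Epicardial cells numbered 60 (6.92%) in the ablated and 13 (2.25%) in the control sample, 3.08-fold higher. Cluster 9, which held 56 of the ablated and 12 of the control epicardial cells, was called higher. Over all cells of pool 1, named or not, the mainly epicardial pool cluster 11 held 107 ablated (7.96%) and 24 control cells (2.60%), a difference of 5.36 points (3.49 to 7.19). Median depth was 9980.5 UMIs per epicardial cell in the ablated and 9441 in the control sample. With fibroblasts and cardiomyocytes left out of the count, epicardial cells were 16.4% (12.7 to 20.6) of ablated and 5.80% (3.13 to 9.72) of control cells. Mural cells were then 11.2% (8.16 to 14.9) of ablated and 28.6% (22.8 to 34.97) of control cells, vascular endothelial cells 26.0% (21.5 to 30.8) of ablated and 25.9% (20.3 to 32.1) of control cells, and endocardial cells 13.4% (10.1 to 17.3) of ablated and 20.1% (15.0 to 25.9) of control cells.

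Ventricular cardiomyocytes, the muscle cells of the pumping chambers, numbered 204 (23.5%) in the ablated and 49 (8.46%) in the control sample. Clusters 0, 1 and 10 of them were called higher, with 57, 22 and 22 ablated against 7, 3 and 3 control cells. Median mitochondrial percents of ablated and control cells were 7.41% and 7.56% in cluster 0 and 28.0% and 29.4% in cluster 1. In cluster 10 they were 6.28% and 18.3%. The control medians of clusters 1 and 10 rest on 3 cells each. As a share of its own type, cluster 0 was 27.9% of ablated and 14.3% of control ventricular cardiomyocytes, with an interval of the difference that held 0 (-0.640 to 24.4). The intervals of the 9 other ventricular clusters held 0 too. Atrial cardiomyocytes numbered 34 (3.92%) in the ablated and 39 (6.74%) in the control sample, a difference of -2.81 points (-5.46 to -0.382). It was -2.24 points (-4.81 to 0.111) without the deepest 10% of cells and -1.91 points (-4.35 to 0.316) without the 10% richest in mitochondrial UMIs, so both of these intervals held 0. The atrial cluster 21, with medians of 23.1% mitochondrial UMIs in the ablated and 22.1% in the control sample, was called lower (8 ablated and 14 control cells). Of all cardiomyocytes, 85.7% (80.6 to 89.9) in the ablated and 55.7% (44.7 to 66.3) in the control sample were ventricular. The labels do not say how much of the atria and ventricles each sample held, and the part of the dissection in this ratio was not tested.

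Vascular endothelial cells differed by 0.940 points (-2.45 to 4.19), and neither of their clusters was called, with 77 ablated and 50 control cells in cluster 2 and 18 ablated and 8 control cells in cluster 15. Endocardial cells numbered 49 (5.65%) in the ablated and 45 (7.77%) in the control sample, a difference of -2.12 points whose interval held 0 (-5.00 to 0.574). Among non-fibroblast cells the difference was -6.31 points and its interval did not hold 0 (-11.2 to -1.86), and with cardiomyocytes left out as well it was -6.70 points (-13.4 to -0.313). Cluster 5 was called lower, with 21 ablated and 35 control cells, or 42.9% (28.8 to 57.8) of ablated and 77.8% (62.9 to 88.8) of control endocardial cells. Cluster 23, too small to be called, held 13 ablated and 2 control cells.

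The clusters made within each pool cover every E18.5 cell and give the comparison in both pools. In pool 1, 7 of 15 clusters were called (46.7%), 5 higher in the ablated sample (33.3%) and 2 lower (13.3%). In pool 2, 14 of the 15 clusters had enough cells and 8 of these were called (57.1%), 4 higher (28.6%) and 4 lower (28.6%). With so many clusters called in either pool, a call alone sets no cluster apart. Cluster numbers of the pools do not match each other, and pool 2 clusters have no cell type name here.

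In pool 1, 94.3% of the named E18.5 cells lay in a pool cluster led by their own type, so these clusters roughly extend the types to unnamed cells. The fibroblast-led cluster 1 was more mixed, with fibroblasts as 147 of its 191 named cells. It also held 9 ablated and 35 control mural cells, so shares of fibroblast-led clusters are not of fibroblasts alone. The 4 clusters led by fibroblasts were 31.8% (29.4 to 34.4) of ablated and 51.5% (48.2 to 54.7) of control cells. Cluster 1 was the lowest against control, with 30 of 1344 ablated cells (2.23%) and 265 of 923 control cells (28.7%). Cluster 12 held 14 ablated (1.04%) and 46 control cells (4.98%). Cluster 14, the third fibroblast-led cluster called, was higher, with 86 ablated (6.40%) and 20 control cells (2.17%). The other fibroblast-led cluster, cluster 2, held 298 ablated (22.2%) and 144 control cells (15.6%). The other clusters called higher were the ventricular-led clusters 0, 3 and 4 and the epicardial-led cluster 11.

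In pool 2, clusters 2 and 8, with medians of 1.503% and 1.508% mitochondrial UMIs over the pool, were far smaller in the ablated sample. Medians of clusters 5, 6, 7 and 9 were 1.54%, 1.47%, 1.45% and 1.54%, so this value does not set clusters 2 and 8 apart. Cluster 8 held 48 of 1524 ablated cells (3.15%) and 125 of 762 control cells (16.4%), and cluster 2 held 85 ablated (5.58%) and 142 control cells (18.6%). Together they were 8.73% (7.36 to 10.3) of ablated and 35.04% (31.6 to 38.5) of control cells, a difference of -26.3 points (-30.1 to -22.6), a grouping made after seeing the values. Clusters 7 and 13 were also called lower, with 47 ablated (3.08%) and 60 control cells (7.87%) in cluster 7, and 24 ablated (1.57%) and 26 control cells (3.41%) in cluster 13. The clusters called higher were 0, 4, 10 and 11, all with a median mitochondrial percent above 5 over the pool. Cluster 3, also with a median above 5, went the other way and was not called. It held 92 ablated (6.04%) and 70 control cells (9.19%), a difference of -3.15 points (-5.70 to -0.793). Cluster 0 alone held 388 ablated (25.5%) and 40 control cells (5.25%). Because such clusters took up much of the ablated sample, shares were also taken over the cells outside them. Then clusters 2 and 8 were 19.2% (16.4 to 22.4) of ablated and 45.2% (41.1 to 49.3) of control cells, and 4 of 9 clusters were called. Cluster 8 was lower, and clusters 6, 9 and 12 were higher. Cluster 12 is the shallowest of the pool, with medians of 911 UMIs in ablated and 787 UMIs in control cells.

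**Figure D4:**
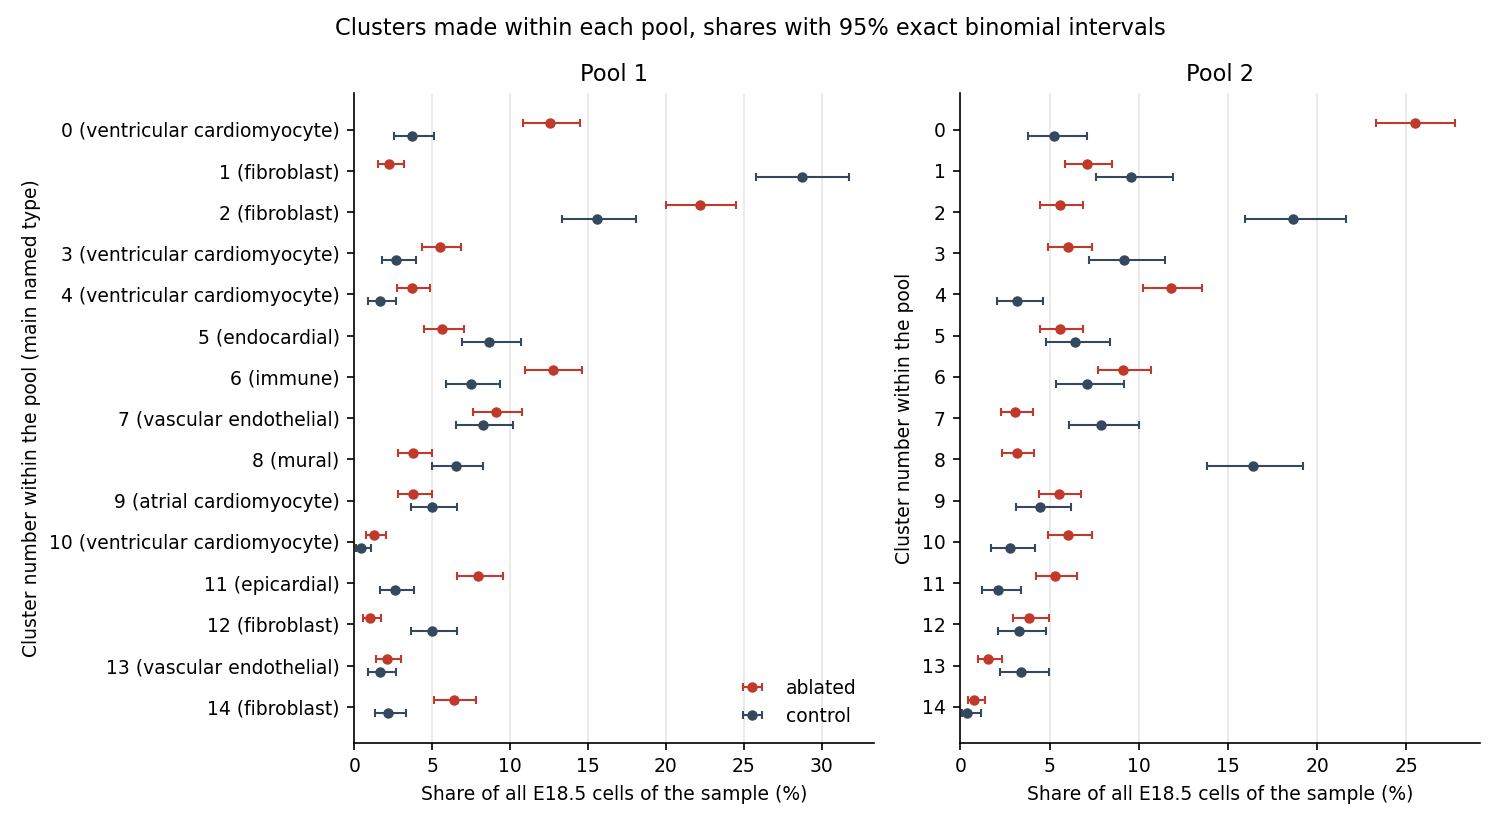
Share of all E18.5 cells (%) in the clusters made within pool 1 (left, with the main cell type of the named cells) and within pool 2 (right, no names), ablated above control in each pair, with 95% exact binomial intervals. Pool 1 cluster 1 was 2.23% of ablated and 28.7% of control cells, and pool 2 cluster 8 was 3.15% of ablated and 16.4% of control cells.

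Both pools also gave the mitochondrial percent, which is high in cardiomyocytes because they hold many mitochondria. Its median per cell was 1.91% and 3.94% in the ablated samples of pools 1 and 2, against 1.62% and 1.86% in the control samples. Cells above 5% were 26.1% and 42.7% of the ablated samples, against 13.7% and 19.4% of the control samples. Clusters with a median above 5% over their pool, 5 in each pool and a measure added after seeing the data, held 26.9% and 54.7% of ablated against 13.4% and 22.4% of control cells. In pool 1, 325 of the 327 named E18.5 cells in these clusters were cardiomyocytes, and 325 of the 326 named cardiomyocytes lay in them. In all 3 measures both ablated samples lay above both control samples, with mean differences of 1.18 points, 17.9 points and 22.8 points. For each of them the two-sided exact permutation test gave p = 0.333, the smallest it can give, and 0.5 after Benjamini-Hochberg adjustment over 6 measures. Without the ablated sample of pool 2 these differences were 0.169, 9.58 and 8.92 points. Among named cells, 26.2% of ablated and 15.7% of control cells lay above 5%; at the cell type mix of the control sample the ablated value was 16.7%. Ventricular cardiomyocytes themselves lay above 5% in 171 of 204 ablated (83.8%) and 43 of 49 control cells (87.8%).

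At the low end, cells under 1% mitochondrial UMIs were more frequent in the ablated samples of both pools. Counted outside the mitochondria-rich clusters, they were 210 of 983 ablated cells (21.4%, 18.8 to 24.1) and 91 of 799 control cells (11.4%, 9.27 to 13.8) in pool 1. In pool 2 they were 135 of 691 ablated cells (19.5%, 16.6 to 22.7) and 69 of 591 control cells (11.7%, 9.20 to 14.5). The mean was 20.45% ± 1.29 in ablated and 11.5% ± 0.202 in control samples (SD, n = 2 each), a difference of 8.92 points that was higher in 2 of 2 pools (two-sided exact permutation test, p = 0.333, adjusted p = 0.5). The groups did not overlap. The measure was chosen after the low values of clusters 25 and 38 in pool 1 had been seen, so its p is no independent support. In pool 2 it was higher in 7 of 9 clusters with at least 20 cells of each sample, among them cluster 8 with 19 of 48 ablated cells (39.6%) and 14 of 125 control cells (11.2%), and cluster 2 with 27 of 85 (31.8%) and 18 of 142 (12.7%). In pool 1 it was higher in 7 of 8 such clusters. Some of these differences had intervals that held 0, as in pool 2 cluster 13 with 3 of 24 ablated and 3 of 26 control cells. By named type it did not go 1 way. It was higher in the immune cells above and in epicardial cells, with 8 of 60 (13.3%) ablated and 0 of 13 control epicardial cells. It was lower in mural cells, with 1 of 41 (2.44%) ablated and 10 of 64 (15.6%) control cells. It was 7.37% of ablated and 12.1% of control vascular endothelial cells, and 4.08% of ablated and 8.89% of control endocardial cells. Fibroblasts outside clusters 25 and 38 stood at 15.4% in both samples. Among the named cells of pool 1 the difference was 7.58 points, with an interval wholly above 0. Leaving out clusters 25 and 38 brought it to 1.05 points (-3.31 to 5.34), with 14.5% of ablated and 13.4% of control cells. These clusters held ablated cells alone, most of them under 1%, so leaving them out had to lower the ablated share. The fall therefore does not test what part they had in the difference over all cells. At E16.5 the same measure was 11.5% and 19.04% in ablated against 9.23% and 13.4% in control samples of pools 1 and 2. Among cells with at least 5000 UMIs the E18.5 difference was 8.73 points.

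**Figure D5:**
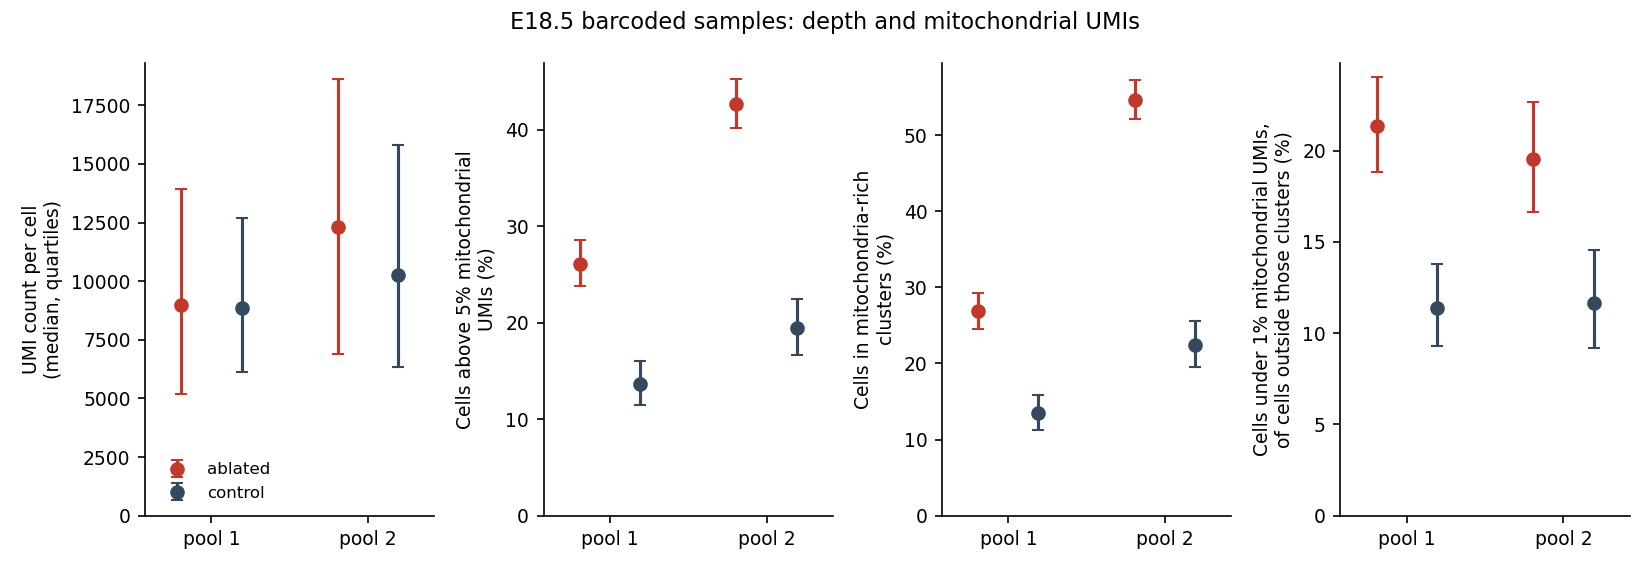
UMI count per cell (median and quartiles over cells), cells above 5% mitochondrial UMIs, cells in mitochondria-rich clusters, and cells under 1% mitochondrial UMIs outside those clusters, in the 4 E18.5 samples, ablated left of control in each pool; bars of the shares (%) are 95% exact binomial intervals. Both ablated samples lie above both control samples in the 3 panels of mitochondrial measures and not in the panel of UMI counts.

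Phases of the cell cycle were called by the authors from S and G2M scores, for the named cells of pool 1. Over all named cells, 31.8% (28.7 to 35.1) of ablated and 30.6% (26.8 to 34.5) of control cells were called in S or G2M, a difference of 1.26 points (-3.74 to 6.19). In each of 7 types both samples had at least 20 cells, and 2 of these types had an interval of the difference that excluded 0. Fibroblasts stood at 102 of 263 (38.8%) in the ablated and 81 of 267 (30.3%) in the control sample, a difference of 8.45 points (0.0875 to 16.7). Atrial cardiomyocytes stood at 3 of 34 (8.82%) in the ablated and 13 of 39 (33.3%) in the control sample, a difference of -24.5 points (-42.8 to -3.93). Among fibroblasts with at least 9348.5 UMIs, their median, such calls were more frequent, at 46.0% of ablated and 46.1% of control cells. Median depth was 9515 UMIs in ablated and 9264 in control fibroblasts. Phase calls also follow the clusters, since 11 of the 40 integrated clusters held E18.5 cells in S or G2M alone. Among these were the fibroblast clusters 13, 18 and 38. Outside these 3 fibroblast clusters the fibroblast share was 21.1% (15.7 to 27.3) in the ablated and 17.3% (12.6 to 22.9) in the control sample. The difference was 3.75 points (-4.02 to 11.6). In cluster 3, which both samples filled, the share was 22.0% in the ablated and 19.2% in the control sample. The part that depth and free RNA in the droplets had in these calls was not tested, and no cycling is read from them.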

How the data were processed

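Cells of dissociated hearts were captured with a droplet 3′ kit after each sample had been stained with its own barcode, per the labels' protocols. Cell Ranger 7.1.0 and the build GRCm38 are named in the submitters' processing notes; how genes were annotated, cells filtered and clusters made was not stated in the sources used here. The deposited UMI count and count of detected genes of a cell are raw whole numbers, per the file headers. The tables also give the deposited percent of mitochondrial UMIs, relative to all UMIs of the cell, and the authors' S score and G2M score, with phase and cell type. Every cell was called single by the authors, and no doublet caller or thinning of UMIs could be run without gene values. The copy of the integrated table broke off after 4546 cells, 62.7% of pool 1 and none of pool 2. The planned test of phase shares over 4 samples could therefore not be made, nor, without gene values, the check of cell types by markers.

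Cells were grouped by the deposited barcode key. Sample values were compared with two-sided exact permutation tests, and with labels permuted within each pool, whose samples share a library, as an alternative (4 reassignments, no p below 0.5). Shares had 1 sample per condition and no test. Clusters were named where called, as the report defines, and every cell type was described; other clusters were named after their values were seen. Added after the data were seen were the shares of cells above 5% and under 1% mitochondrial UMIs and in mitochondria-rich clusters, shares outside the mitochondria-rich clusters or within a cell type, the control cell type mix, ratios to endothelial cells, and leaving out clusters 25 and 38. The members, measures and groupings were chosen with earlier results of these data known. Tables were handled in Python 3.11.15 with pandas 2.3.3 and scipy 1.17.1. Depth per sample is given in the report, and intervals cover counting error only. No column belonged to samples of another series.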

Additional observations from a re-analysis of the deposited data

Results flagged for a closer look

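The atrial cardiomyocyte share was lower in the ablated sample at E18.5, by -2.81 percentage points (3.92% of ablated and 6.74% of control cells of pool 1), and higher at E16.5, by 6.26 points (10.1% of ablated and 3.82% of control cells). The samples of the stages moved in opposite directions, with 1 ablated and 1 control sample at each stage, and the difference between the stages was not tested. At E16.5 the interval of the difference was 3.92 to 8.90 points and at E18.5 it was -5.46 to -0.382 points, both for counting error only. Leaving out the deepest 10% of cells, the E18.5 difference was -2.24 points (-4.81 to 0.111), and leaving out the 10% richest in mitochondrial UMIs it was -1.91 points (-4.35 to 0.316), so both of these intervals held 0.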

How the results depend on the processing

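Permuting labels within each pool left every difference as it was, with a smallest possible p of 0.5 in place of 0.333; neither pairing nor its absence could give a call at 0.05, so this says nothing about stability. The UMI difference turned to -586.25 without the ablated sample of pool 2, and lay between -586.25 and 2728.25 over samples left out in turn. The gene difference was -15 in pool 1 alone, -37.6 by means over cells, -161.75 without the ablated sample of pool 2, -75.75 without the control sample of pool 1, and at most 303.75. Over samples left out in turn, the median mitochondrial percent differed by 0.169 to 2.20, cells above 5% by 9.58 to 26.2, cells in mitochondria-rich clusters by 8.92 to 36.7 and cells under 1% by 8.005 to 9.83 points. Among non-fibroblast cells the differences were -13.7 points for mural, -6.87 for atrial, -2.86 for vascular endothelial and -6.31 for endocardial cells, whose interval no longer held 0 (-11.2 to -1.86). The atrial interval held 0 without the deepest 10% of cells (-2.24 points) or the 10% richest in mitochondrial UMIs (-1.91 points). Among non-cardiomyocyte cells they were 10.3 for immune and 6.89 for epicardial cells. As shares of UMIs they were 2.25 for immune cells and 18.9 for ventricular cardiomyocytes. Called integrated clusters were 11 of 25 in the main setting and 6 of 9 with a minimum of 50 cells. They were 12 of 25 at 1.5 times apart and 13 of 24 without clusters 25 and 38. As shares of their own cell type, 5 of 25 were called. Called clusters of pool 2 went from 8 of 14 to 4 of 9 outside the mitochondria-rich clusters. In the upper range of UMIs no type had an interval of the S or G2M difference that excluded 0 (0 of 5), and for fibroblasts it turned to -0.108 points; these cells are fewer. Atrial cardiomyocytes had too few such cells to be among these 5, with 2 of 19 ablated and 7 of 18 control cells, a difference of -28.4 points (-55.4 to 2.90). Where the construction of an alternative does not show it, the cause was not tested. There were 2 samples against 2 at best, and 1 against 1 wherever a cell type is named.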
